A study of Saccharomyces cerevisiae with 36 samples.

Results

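The transcripts described here are those of 10 chaperone and heat shock genes of Saccharomyces cerevisiae, namely HSP12, HSP26, HSP30, HSP42, HSP78, HSP82, HSP104, SSA3, SSA4 and BTN2. They were chosen by symbol, with earlier results of these data known. Each had 1 probe among the 6388 yeast probes on the array, of which 5326 carried 1 gene symbol. RNA of 18 strain groups was hybridised to 36 arrays with 2 colours, 2 arrays a strain. By the methods every strain was read against a common reference RNA, and whether all arrays had the same one was not tested. A level below is log2 of strain over reference for 1 probe after loess normalization, so levels of different genes were not set against each other. Array a had the strain in Cy3 and the reference in Cy5, and array b had the dyes swapped.

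The starved strains (8) were MATa strains for recombination-induced tag exchange (RITE) at histone H3 that had been grown to saturation in rich medium and held there in G0. A figure legend of the paper gives 3 days. For the harvest the methods refer to the turnover experiments, in which estradiol is added to switch the H3 tag from HA to T7. The sample titles do not say whether these cells had been switched. These strains carried a single H3 gene with the HA-to-T7 cassette (HHT2-LoxP-HA-HPHMX-LoxP-T7), hhf1-hht1::LEU2, lys2, bar1::HisG and, like the growing RITE strains, Cre-EBD78 driven from the TDH3 promoter. They were the hat1, hat2, hif1, hat1hif1 and hat2hif1 deletions (KANMX or NATMX), 2 strains with point mutations in HHF2 that changed lysines 5 and 12 of H4 to glutamine (H4K5,12Q) or arginine (H4K5,12R), and the wild type. The growing RITE strains (3), in mid-log phase in synthetic medium with glucose, had H3-HA, H3-T7 or untagged H3, and were MATa, trp1, hht1-hhf1::MET15 and bar1::HisG. The tagged ones carried HHT2-LoxP-HA or HHT2-LoxP-T7, left after induced recombination had removed a first tag and the HphMX marker. No LoxP site or recombination is listed for the untagged strain. The growing NuB4 strains (7), in the same phase and medium, were hat1, hat2, hif1, hat1hat2, hat1hif1, hat2hif1 and hat1hat2hif1 deletions in BY4742, a MATα strain. Growing BY4742 wild type and growing cultures of the starved strains were not analysed here, so starvation was set against growing strains that also differ in medium, markers and tag cassette. NuB4 is the nuclear complex of the histone acetyltransferase Hat1, its partner Hat2 and the histone chaperone Hif1, and it acetylates newly made H4 on the lysines that were mutated.

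Chaperones keep other proteins from aggregating, refold them or pull them out of aggregates. In yeast, heat and other stresses raise many chaperone transcripts through the heat shock factor Hsf1. Many stress genes, some of them the same, answer to Msn2 and Msn4. These factors bind stress response elements in promoters and are active when glucose runs out or growth slows. Cells that enter stationary phase are known to hold large amounts of several heat shock proteins.

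The labels held at the deleted genes. HAT1 read between -3.12 and -2.65 on the 4 starved arrays with the deletion and between -1.21 and -0.71 on the 12 without it, and HAT2 and HIF1 also separated without overlap, in starvation and in growth. The a-specific gene STE2 read 4.30 to 5.28 on starved arrays and 4.34 to 5.17 on growing RITE arrays, against -0.12 to 0.00 on growing NuB4 arrays. The labels name BY4742 for every strain. The probe of BAR1, disrupted in all RITE strains, read 2.02 to 3.31 on starved arrays and gave no check of that disruption. Strain signal over local background had a median of 7.54 (5.38 to 11.9 over the arrays), and array a correlated with array b at 0.961 to 0.983 for starved strains, 0.916 to 0.963 for growing RITE strains and 0.679 to 0.818 for growing NuB4 strains. The probe of ATG33 had reference signal on every array of the growing NuB4 strains and of starved hat1hif1, hat2hif1, H4K5,12Q and H4K5,12R, and on none of the others. The labels name no such sets, and whether they mark the arrays, the reference RNA or something else was not tested. Those 4 starved mutants and the starved wild type fell on different sides of this divide, and it cannot be told apart from genotype when they are compared. The labels give both arrays of a strain the same number and different letters, and do not say whether they came from separate cultures. The growing hat1, hat2, hif1 and untagged RITE strains share a number that no other strain has, and what it marks is not stated. Comparisons of a tag with untagged H3, and of a growing single with a double mutant, cross this number. There it cannot be told apart from genotype. In part, starved wild type against the growing RITE strains crosses it too. The methods state independently inoculated cultures that were each profiled more than once, so p-values measure the spread between arrays, which may be technical.

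In starved wild-type cells, 9 of the 10 genes rose over the growing RITE strains, by 3.21-fold for HSP12 to 28.9-fold for HSP30 (adjusted p under 0.05 in limma, Benjamini-Hochberg over all probes). The exception was HSP82. The background was high, since 40.0% of all probes rose and 38.2% fell in the same comparison. The median log2 difference was 2.55 over the 10 genes and 0.01 over all probes, the latter largely set by the loess normalization. The values are relative to all RNA on the array, and in bulk samples fewer cells with a transcript and less of it per cell cannot be told apart. The plot of all 10 genes by array shows the 3 sets of strains side by side.

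**Figure D1:**
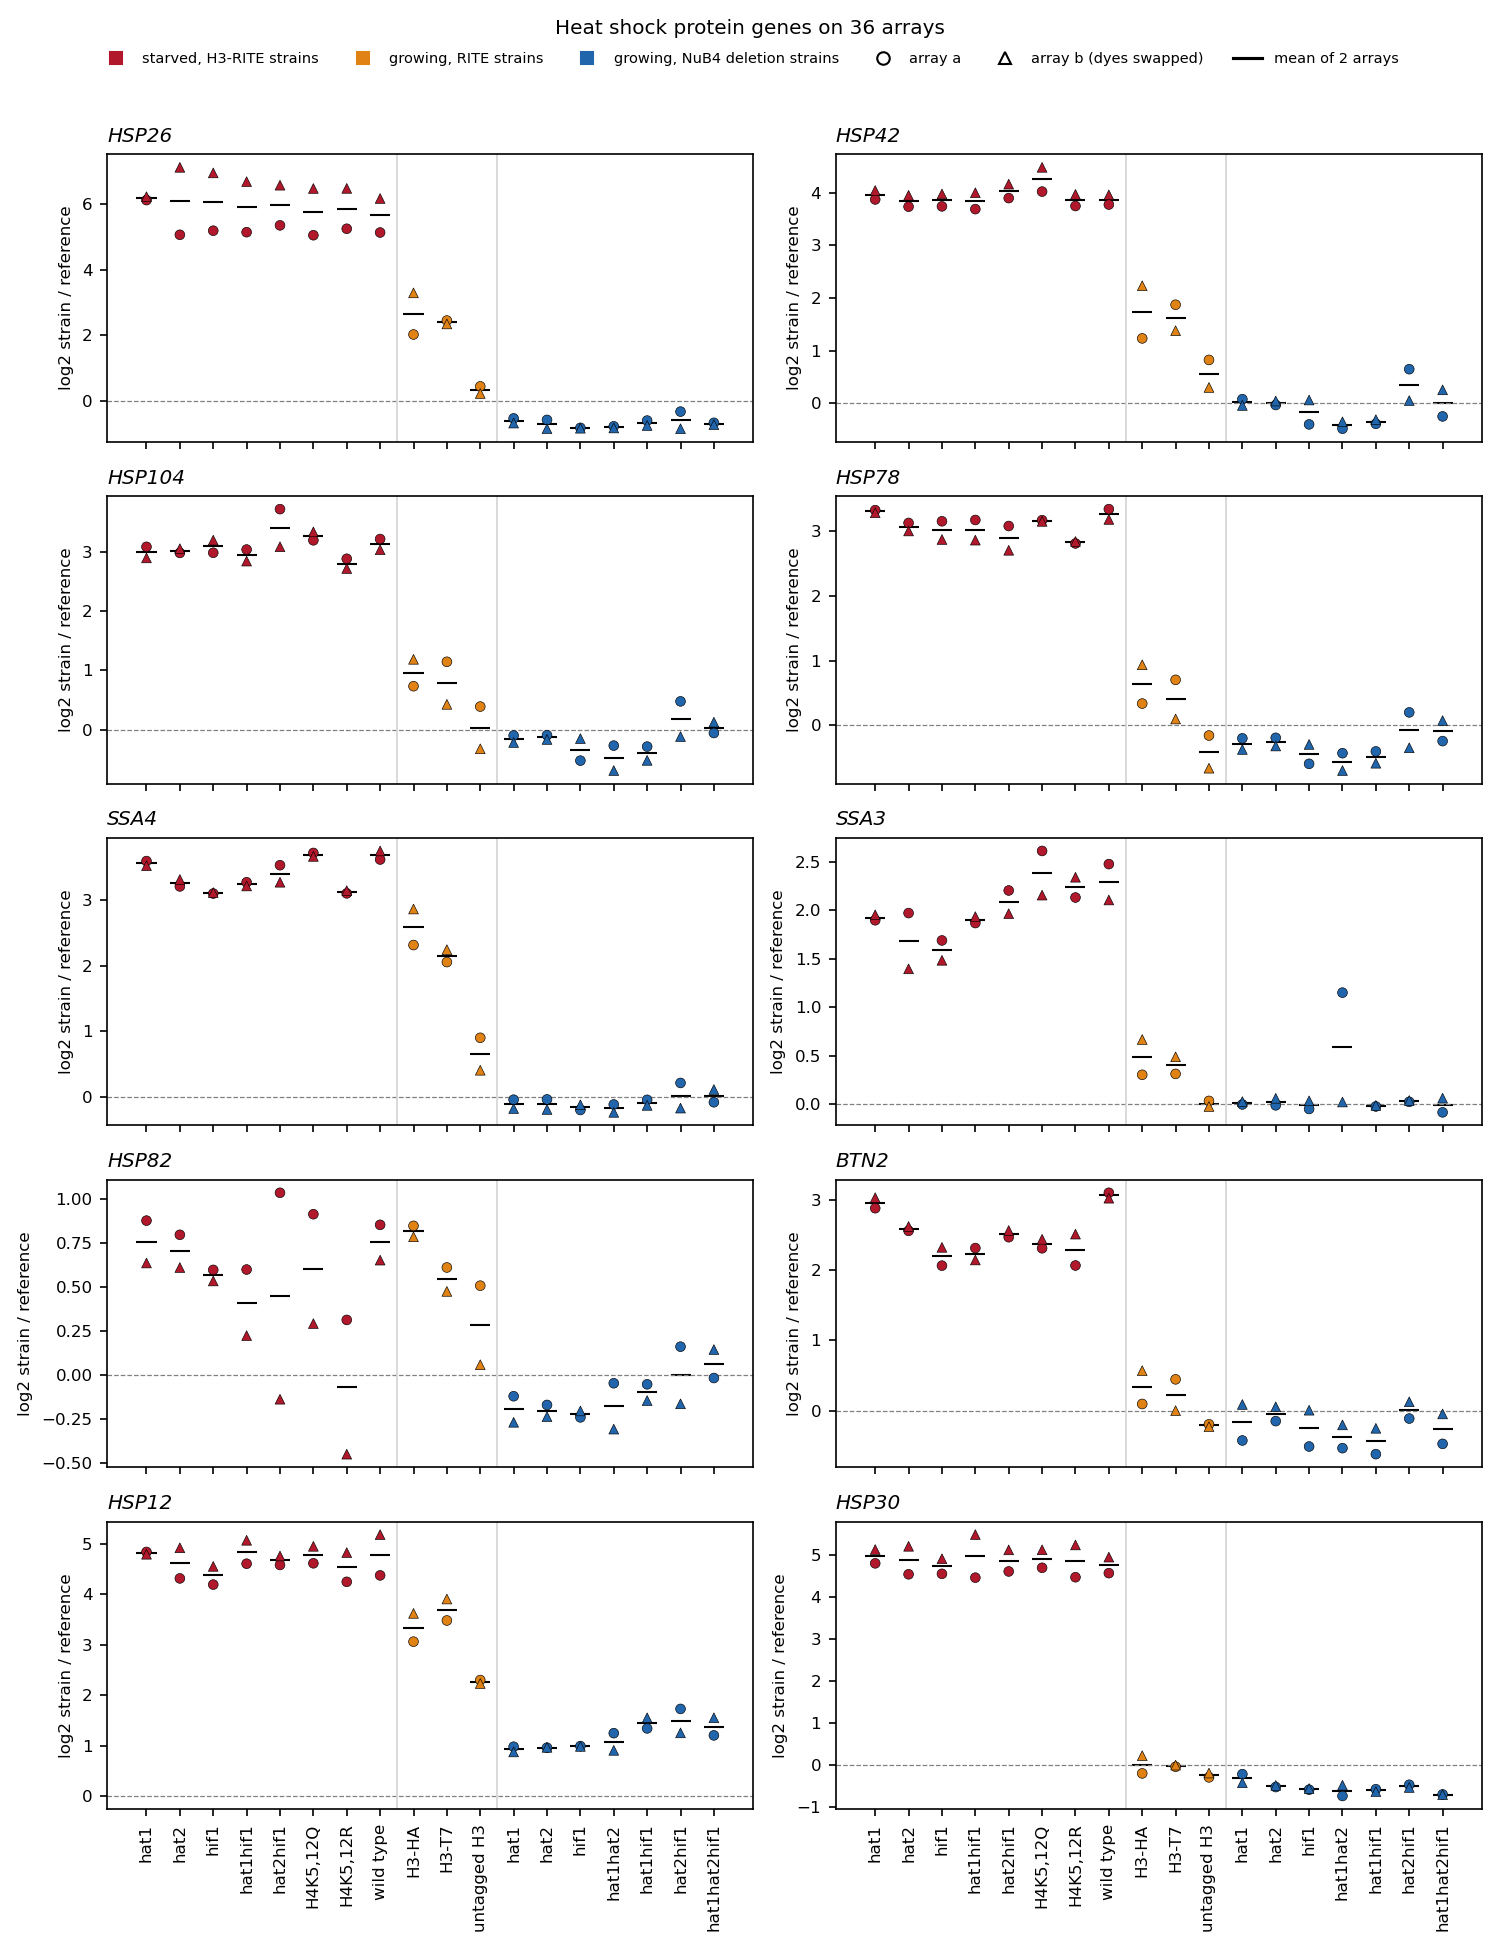
Log2 of strain over reference for each of the 10 genes (1 panel a gene) on all 36 arrays, with starved, growing RITE and growing NuB4 strains along the horizontal axis, 1 point an array and a dash at the mean of a strain. In 9 panels the starved arrays lie above all growing arrays, and in the HSP82 panel they overlap them.

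Among the small heat shock proteins, which bind unfolding proteins and hold them for refolding, HSP26 read 5.13 and 6.16 on arrays a and b of the starved wild type, against 0.23 to 3.29 (median 2.18) on the 6 growing RITE arrays. HSP42, whose product acts in unstressed cells too and gathers misfolded proteins into cytosolic deposits, read 3.78 and 3.96 in starvation, against 0.30 to 2.23 (median 1.30) in growth. Both starved arrays stood above every growing array for both genes. The difference was 3.85 for HSP26 (SE 0.33, 14.4-fold, adjusted p = 3.57e-07 in limma) and 2.56 for HSP42 (SE 0.21, 5.92-fold, adjusted p = 3.16e-07). HSP26 differed by array letter: the 8 starved arrays a read 5.04 to 6.11 and the 8 starved arrays b 6.16 to 7.11, without overlap. The strain signal behind these ratios lay between 34135 and 44940 intensity units on the 16 starved arrays, while the reference signal at the same probe was 1595 to 2446 on arrays a and 461 to 995 on arrays b, against 289 to 350 on the growing RITE arrays. The part of this reference signal in the HSP26 differences was not tested.

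The disaggregases came next. HSP104, which threads proteins out of aggregates in the cytosol, read 3.21 and 3.03 in the starved wild type, against -0.32 to 1.19 (median 0.58) in the growing RITE strains. Its mitochondrial relative HSP78 read 3.33 and 3.17, against -0.66 to 0.93 (median 0.22). Starved and growing arrays did not overlap for either gene. HSP78 differed by 3.04 (SE 0.18, 8.24-fold, adjusted p = 1.29e-08 in limma) and HSP104 by 2.53 (SE 0.20, 5.77-fold, adjusted p = 2.12e-07). BTN2, which works with Hsp42 and sorts misfolded proteins into deposits, read 3.10 and 3.03 in starvation, against -0.23 to 0.57 (median 0.05) in growth, and rose by 2.95 (SE 0.14, 7.73-fold, adjusted p = 3.24e-09). Its highest growing array was far below its lower starved array.

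Of the Hsp70 genes, SSA4, the strongly heat-inducible copy, read 3.62 and 3.75 in the starved wild type, against 0.41 to 2.87 (median 2.15) in the growing RITE strains. SSA3, an inducible copy that is also used as cells leave growth, read 2.47 and 2.10, against -0.02 to 0.67 (median 0.31). Both genes were above all growing arrays, SSA4 by a small margin over its highest one. The differences were 1.89 for SSA4 (SE 0.14, 3.70-fold, adjusted p = 1.23e-07 in limma) and 1.99 for SSA3 (SE 0.14, adjusted p = 6.03e-08). The constitutive copy SSA1 fell by 0.93 (SE 0.17, adjusted p = 3.10e-04). SSA3 was dim in growth, so its difference is not an exact measure of the change, with strain signals of 59 to 104 intensity units on the RITE arrays. It was not above background on 1 of the 6 RITE arrays and on 6 of the 14 NuB4 arrays. Since the Hsp70 copies are close in sequence, and probe sequences were not used here, signal shared between copies was not tested.

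HSP82, the stress-inducible copy of Hsp90, did not follow the others. It read 0.85 and 0.65 in the starved wild type, against 0.06 to 0.85 (median 0.56) in the growing RITE strains, and these ranges overlapped. The difference was 0.21 (95% interval -0.18 to 0.59, adjusted p = 0.305 in limma), and its sign depended on the scaling, with -0.22 under print-tip loess (adjusted p = 0.0406), -0.66 under median centring (adjusted p = 0.00285) and -0.18 in the authors' normalized ratios (adjusted p = 0.0963). HSC82, the constitutive and nearly identical Hsp90 copy, fell by 0.34 (SE 0.14, adjusted p = 0.0424 in limma).

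The remaining genes encode membrane-associated proteins rather than classical chaperones. HSP30, a plasma membrane protein that restrains the proton pump Pma1, read 4.57 and 4.95 in the starved wild type, against -0.30 to 0.22 (median -0.12) in the growing RITE strains. HSP12, a small protein that stabilises membranes, read 4.38 and 5.19, against 2.23 to 3.91 (median 3.27). HSP30 was close to the reference level in the growing RITE strains, whereas HSP12 was already well above it in the growing RITE strains. The difference for HSP30 was 4.85 (SE 0.12, adjusted p = 7.82e-11 in limma), rank 3 of all probes by size, and that for HSP12 was 1.68 (SE 0.15, adjusted p = 4.69e-07). The reference signal at HSP30 was 170 to 700 intensity units on the starved arrays, against 107 to 132 on the growing RITE arrays, and its part in the difference was not tested.

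**Figure D2:**
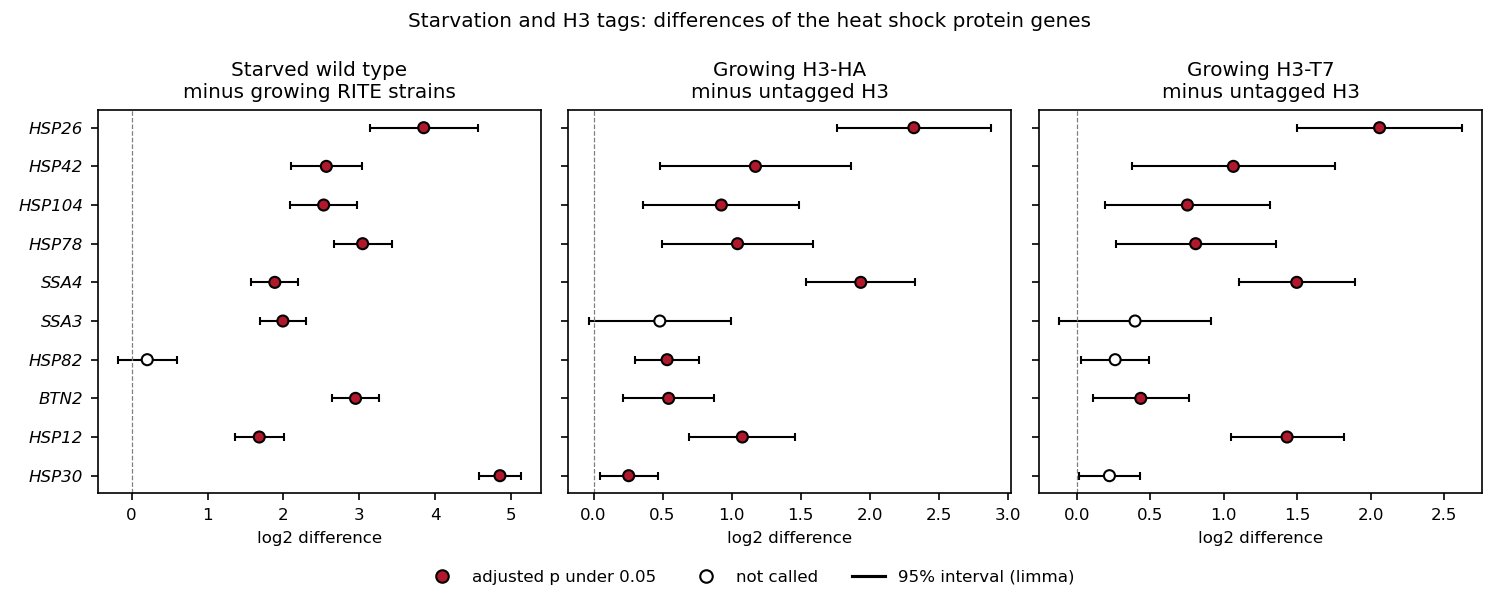
Log2 difference with its 95% interval for each of the 10 genes, for starved wild type over the growing RITE strains, H3-HA over untagged H3 and H3-T7 over untagged H3. Starvation differences run from 0.21 (HSP82) to 4.85 (HSP30), and in both tagged strains HSP26 and SSA4 have the largest differences of the 10.

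The other genes of protein folding did not move as 1 block in starvation. Of 23 further cytosolic chaperone and cochaperone genes on the array, 9 rose and 10 fell, with a median of 0.03. These counts were near the shares of all probes, 40.0% higher and 38.2% lower. SNO4 (2.75), of the Hsp31 family, SSE2 (2.11), a nucleotide exchange factor for Hsp70, and APJ1 (1.55), a J-domain protein, were highest, while SSE1 (-1.38), the main exchange factor in growing cells, and the Hsp90 cochaperones CNS1 (-1.35) and SBA1 (-1.06) were lowest. All 7 ribosome-associated chaperone genes fell (median -1.10), among them ZUO1 (-2.22), EGD2 (-1.44) and SSB1 (-1.27), which act on chains as they leave the ribosome. Of the 10 mitochondrial chaperone genes 7 rose and 2 fell (median 0.48), with MDJ1 (1.37) and HSP10 (1.30) highest, and of the 11 in the endoplasmic reticulum 1 rose and 6 fell (median -0.26).

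Of 25 other genes known as Msn2/Msn4 targets or general stress genes, 22 rose and 1 fell (median 1.53), led by DDR2 (2.85), RTN2 (2.63) and SPI1 (2.51), with YGP1 at -0.64. Among 9 genes of stress regulators and their close outputs, 7 rose and 1 fell (median 0.89). The transcription factor genes HSF1 (0.89, adjusted p = 1.51e-07 in limma) and MSN4 (0.89, adjusted p = 5.12e-06) rose and MSN2 fell by 0.47 (adjusted p = 1.08e-04). The highest members of that list were UBI4 (2.15), which encodes polyubiquitin, and RPN4 (1.95), which drives proteasome genes. Of 120 cytoplasmic ribosomal protein genes, listed as a sign of growth, 103 fell and 2 rose (median -0.89).

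The epitope tags on H3 were compared in growing cells, on 1 side of the divide at ATG33, and both comparisons share the 2 untagged arrays. The fit took in the 14 growing NuB4 arrays besides the 6 growing RITE arrays. Its SEs and p-values therefore also measure the spread within the NuB4 strains. The untagged strain also differs from both tagged strains in its label number, the LoxP site and the earlier recombination. These cannot be told apart from the tag. In the H3-HA strain 9 of the 10 genes rose over untagged H3, where 25.3% of all probes rose and 19.3% fell. In the H3-T7 strain 7 of the 10 rose, where 22.7% of all probes rose and 15.4% fell. The median log2 difference of the 10 genes was 0.98 in H3-HA and 0.78 in H3-T7. Over all probes it was -0.01 and 0.00, values that the loess normalization largely sets. With arrays centred on their median only, 46.4% of the probes called in the H3-T7 comparison were higher, against 59.5% after loess.

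HSP26 and SSA4 differed by the largest amounts of the 10 in both tagged strains. HSP26 read 2.02 and 3.29 in H3-HA and 2.45 and 2.35 in H3-T7, against 0.45 and 0.23 in the untagged strain. SSA4 read 2.32 and 2.87 in H3-HA and 2.06 and 2.25 in H3-T7, against 0.90 and 0.41. All 4 tagged arrays stood above both untagged ones. HSP26 rose by 2.32 in H3-HA (SE 0.26, 4.99-fold, adjusted p = 2.57e-05 in limma), the largest difference of any probe on the array, and by 2.06 in H3-T7 (4.17-fold, adjusted p = 8.63e-05). SSA4 rose by 1.94 in H3-HA (SE 0.18, 3.83-fold, adjusted p = 6.73e-06 in limma) and by 1.50 in H3-T7 (2.82-fold, adjusted p = 7.27e-05).

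HSP12 read 3.06 and 3.62 in H3-HA and 3.48 and 3.91 in H3-T7, against 2.30 and 2.23 in the untagged strain, and again no tagged array overlapped an untagged one. It rose by 1.08 in H3-HA (2.11-fold, adjusted p = 4.73e-04 in limma) and by 1.43 in H3-T7 (2.70-fold, adjusted p = 8.09e-05). HSP42 read 1.23 and 2.23 in H3-HA and 1.87 and 1.38 in H3-T7, against 0.82 and 0.30, and rose by 1.17 and by 1.06 (adjusted p = 0.0105 and 0.0200 in limma). The disaggregase genes rose less. HSP78 rose by 1.04 in H3-HA and 0.81 in H3-T7, and HSP104 by 0.93 and 0.75 (adjusted p between 0.00551 and 0.0381 in limma). BTN2 rose by 0.54 in H3-HA (1.46-fold, adjusted p = 0.0119) and by 0.43 in H3-T7 (1.35-fold, adjusted p = 0.0388). Its T7 arrays, at 0.45 and 0.00, were above the untagged ones at -0.19 and -0.23.

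HSP30, SSA3 and HSP82 had the smallest differences of the 10 in both tagged strains. HSP30, so high in starvation, read -0.21 and 0.22 in H3-HA and -0.05 and -0.01 in H3-T7, against -0.30 and -0.20, a difference of 0.25 in H3-HA (adjusted p = 0.0487 in limma) and 0.22 in H3-T7 (adjusted p = 0.0888). SSA3 differed by 0.48 and 0.40 (adjusted p = 0.119 and 0.208). HSP82 differed by 0.53 in H3-HA (adjusted p = 0.00184 in limma), but by 0.07 under print-tip loess and in the authors' ratios (adjusted p = 0.533 and 0.539). In H3-T7 its difference of 0.26 (adjusted p = 0.0729) turned to -0.04 under print-tip loess and -0.08 in the authors' ratios.

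HSP12, HSP26 and SSA4 were the genes that stayed called in both tagged strains with any 1 of the 4 arrays of the comparison left out. They were also called in both when the 6 RITE arrays were fitted alone, where 15.7% of all probes were called for H3-HA and 9.86% for H3-T7. Without untagged array b, only these 3 were called in either strain. Without H3-HA array b they and HSP82 were called in H3-HA, and without H3-T7 array a they alone were called in H3-T7. Without untagged array a, HSP30 was lost in H3-HA, and in H3-T7 BTN2 was lost and HSP82 gained. At the methods' fold and p thresholds, 4 genes were called in H3-HA (HSP12, HSP26, HSP78 and SSA4) and 3 in H3-T7 (HSP12, HSP26 and SSA4).

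The tagged strains were also set against each other, and none of the 10 genes differed between H3-HA and H3-T7 in limma, where 3.29% of all probes did. At an unadjusted p under 0.05 there were 2, SSA4 with a difference of 0.44 (95% interval 0.04 to 0.84, adjusted p = 0.225) and HSP82 with 0.27 (95% interval 0.04 to 0.51, adjusted p = 0.201), where 18.7% of all probes were below that p. The difference of HSP12 was -0.35 (95% interval -0.74 to 0.03, adjusted p = 0.312), and the other 7 lay between 0.03 (HSP30) and 0.26 (HSP26). This rested on array a of H3-HA, whose values for HSP26, HSP42, HSP78, HSP104, SSA4 and BTN2 were all below those of array b, and without it these 6 genes were called higher in H3-HA, in a fit that called 453 of all probes higher and 250 lower.

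Of the other lists, the Msn2/Msn4-type genes moved with the members in the tagged strains. Among all probes 25.3% rose and 19.3% fell in H3-HA, and 22.7% rose and 15.4% fell in H3-T7. Of the 25 Msn2/Msn4-type genes 22 rose in H3-HA and 23 in H3-T7, and none fell, with medians of 0.74 and 0.65. RTN2 rose by 1.90 and 1.98 and TFS1 by 1.72 and 1.65. Of the 23 further cytosolic chaperone genes 9 rose and 3 fell in H3-HA (median 0.16), and 5 rose and 2 fell in H3-T7 (median 0.04), where the rises were near the share of all probes. HSP31, a stress-induced protein of the DJ-1 family, rose by 1.07 in H3-HA (adjusted p = 2.04e-05 in limma) and by 1.18 in H3-T7 (adjusted p = 1.34e-05). SSA1, unlike in starvation, rose by 0.51 in H3-HA and 0.33 in H3-T7 (adjusted p = 0.00148 and 0.0202). HSF1 rose by 0.21 and 0.16 (adjusted p = 0.0104 and 0.0349 in limma). Ribosomal protein genes fell in 31 cases of 120 in H3-HA (none rose) and in 27 in H3-T7 (3 rose).

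In starvation, the 7 mutants were each set against the same 2 wild-type arrays, and only BTN2 and SSA4 were called among the 10 genes, in each case lower in the mutant. Both were called in hif1, where 0.329% of all probes were lower and 0% higher, and in H4K5,12R, where 1.63% were lower and 1.61% higher. BTN2 was also called in H4K5,12Q, where 0.376% of probes were lower and 0.219% higher, that is 24 and 14 probes, against 26 each with median centring. None of the 10 was called in hat1 (0.0157% of probes called in either direction), hat2 (0.0157%), hat1hif1 (0.0626%) or hat2hif1 (0.157%). At an unadjusted p under 0.05, 0 of the 10 differed in hat1 (4.13% of all probes), 3 in hat2 (7.33%), 4 in hat1hif1 (10.8%) and 3 in hat2hif1 (11.3%).

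**Figure D3:**
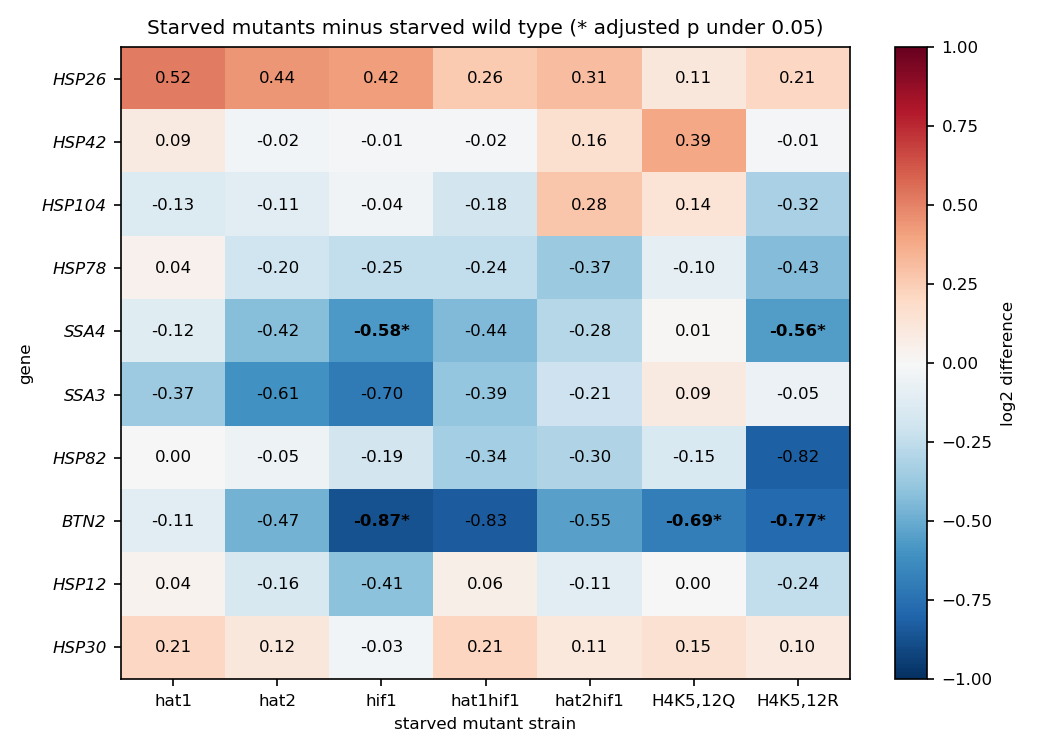
Log2 difference of each starved mutant (columns) over the starved wild type for the 10 genes (rows), printed in each cell and coloured blue below 0 and red above 0, with an asterisk where the adjusted p in limma was under 0.05. The 5 asterisks stand in the BTN2 and SSA4 rows, and BTN2 is below 0 in all 7 mutants.

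BTN2 read 2.07 and 2.33 in hif1, 2.31 and 2.44 in H4K5,12Q and 2.07 and 2.51 in H4K5,12R, against 3.10 and 3.03 in the wild type. It read 2.32 and 2.15 in hat1hif1, 2.47 and 2.57 in hat2hif1, 2.56 and 2.62 in hat2 and 2.88 and 3.03 in hat1. Of the 14 mutant arrays 13 were below both wild-type arrays, all but array b of hat1, and hat1 was the nearest to the wild type. BTN2 fell by 0.87 in hif1 (SE 0.12, adjusted p = 0.0304 in limma), by 0.77 in H4K5,12R (adjusted p = 0.0148) and by 0.69 in H4K5,12Q (SE 0.12, adjusted p = 0.0494). The uncalled differences were -0.83 in hat1hif1 (adjusted p = 0.0549), -0.55 in hat2hif1 (adjusted p = 0.152), -0.47 in hat2 (adjusted p = 0.344) and -0.11 in hat1 (adjusted p = 0.999). The lowest mutant array, at 2.07, was above the highest growing RITE array, at 0.57.

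SSA4 read 3.10 and 3.12 in hif1 and 3.10 and 3.15 in H4K5,12R, against 3.62 and 3.75 in the wild type, with no overlap. It fell by 0.58 in hif1 (SE 0.09, adjusted p = 0.0383 in limma) and by 0.56 in H4K5,12R (adjusted p = 0.0148). In H4K5,12Q it read 3.72 and 3.67 and overlapped the wild type. The direct difference of H4K5,12Q over H4K5,12R was 0.57 for SSA4 (95% interval 0.37 to 0.77, adjusted p = 0.195), and neither any of the 10 genes nor any other probe (0%) was called between the H4 mutants, with 5 of the 10 and 4.18% of all probes at an unadjusted p under 0.05. The other differences ran from -0.10 for HSP26 to 0.67 for HSP82, which was -0.02 under print-tip loess.

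With 2 arrays a strain these calls were sensitive to single arrays. In hif1, both calls were lost without hif1 array b or without wild-type array b, and BTN2 was lost without wild-type array a (adjusted p = 0.108 in limma). In H4K5,12Q the BTN2 call was lost with any of the 4 arrays left out. In H4K5,12R both calls were lost without H4K5,12R array a or wild-type array b, BTN2 alone without wild-type array a and SSA4 alone without H4K5,12R array b. Across these fits the BTN2 difference in hif1 ran from -0.98 to -0.76 and the SSA4 difference from -0.60 to -0.49 where a call was lost. Median centring or the methods' thresholds ended all of the calls in hif1, H4K5,12Q and H4K5,12R, and a fit without the dye term for the array letter ended those in hif1 and H4K5,12Q. Print-tip loess ended that of SSA4 in hif1.

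None of the other 8 members was called in any starved mutant. HSP12 read 4.20 and 4.56 in hif1, against 4.38 and 5.19, a difference of -0.41 (adjusted p = 0.415 in limma). HSP78 was below both wild-type arrays on 12 of 14 mutant arrays, and its difference in H4K5,12R was -0.43 (adjusted p = 0.0540). SSA3, at 1.69 and 1.48 in hif1, against 2.47 and 2.10, differed by -0.70 (adjusted p = 0.181), and at 1.97 and 1.40 in hat2 by -0.61 (adjusted p = 0.379). HSP42 in H4K5,12Q read 4.02 and 4.49, against 3.78 and 3.96, a difference of 0.39 (adjusted p = 0.0606). HSP82 in H4K5,12R read 0.31 and -0.45, against 0.85 and 0.65, and its difference of -0.82 (adjusted p = 0.0807) was 0.01 under print-tip loess and -0.02 in the authors' ratios. HSP26 was above the wild type in the mean of every mutant (-0.05 for H4K5,12Q with the authors' ratios), but array a was below array b in each of these strains. HSP30 differed by -0.03 to 0.21 over the 7 mutants and HSP104 by -0.32 to 0.28.

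The starved H4 mutants and the starved NuB4 double mutants lay on the same side of the divide at ATG33, and between the mean of both H4 mutants and the mean of both doubles none of the 10 genes was called, although 10.8% of all probes were. At an unadjusted p under 0.05 there was 1 of the 10, against 27.2% of all probes. The largest difference was in SSA3, at 0.32 (adjusted p = 0.127 in limma), and the other 9 lay between -0.16 (HSP82) and 0.12 (HSP42). HSP42 was called under print-tip loess (0.22) and with the authors' ratios (0.17). Of the 25 Msn2/Msn4-type genes 9 were higher in the H4 mutants (median 0.33). Set against the starved wild type, across the divide, 3 of those 25 rose in H4K5,12Q (median 0.44), where 0.219% of all probes rose. In H4K5,12R 2 rose (median 0.26), where 1.61% of all probes rose, and none fell in either mutant.

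In the growing NuB4 strains most of the 10 genes were near or below the reference. Over the 14 arrays HSP26 ran from -0.84 to -0.32 (median -0.73), HSP30 from -0.74 to -0.22 (median -0.55) and BTN2 from -0.62 to 0.13 (median -0.18). SSA4 ran from -0.23 to 0.21 (median -0.12), HSP42 from -0.49 to 0.65 (median -0.04), HSP104 from -0.69 to 0.48 (median -0.16), HSP78 from -0.69 to 0.20 (median -0.33) and HSP82 from -0.31 to 0.16 (median -0.15). HSP12 alone was above the reference on every array, at 0.87 to 1.73 (median 1.10). These strains and the RITE strains differ in mating type, markers and the signal at ATG33, so levels between them were not tested.

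Deletions were compared in growth on matched backgrounds, as the mean of 3 pairs of strains that differ in 1 gene. Loss of HIF1 called none of the 10 genes in limma, where 0.329% of all probes were called. At an unadjusted p under 0.05 there were 3 of the 10 and 15.2% of all probes. HSP12 came nearest, with a difference of 0.45 (SE 0.09, adjusted p = 0.0592), rank 3 of all probes. It read 1.34 and 1.55 in hat1hif1, against 0.98 and 0.87 in hat1. It read 1.73 and 1.25 in hat2hif1, against 0.96 and 0.97 in hat2, and 1.20 and 1.55 in hat1hat2hif1, against 1.25 and 0.91 in hat1hat2. The first 2 pairs did not overlap and the third did. The strains of the first 2 pairs also differ in label number, and those of the third do not. In hif1 alone HSP12 was 0.99 and 0.98, at the level of the other single mutants. The call depended on the arrays and the processing: HSP12 passed without array a of hat1hat2hif1, array a of hat1hat2 or array b of hat2hif1 (with HSP82 in that fit), and with the authors' ratios (adjusted p = 0.0414) or without background correction (adjusted p = 0.0319). The other 9 genes differed by -0.21 (SSA3) to 0.19 (HSP104). Without array b of hat1hat2, SSA3 was called lower instead, but on the remaining array a its 2 spots read 2.35 and -0.05, so that call rests on 1 discordant spot of a dim probe.

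**Figure D4:**
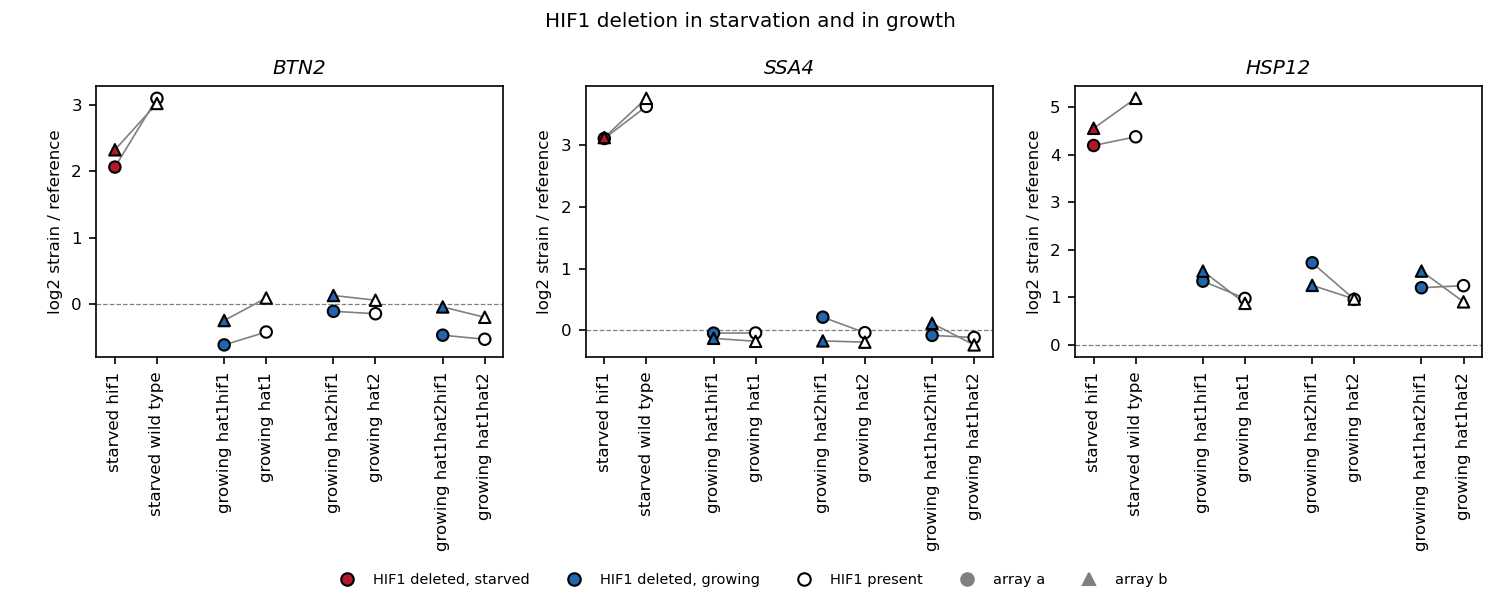
Log2 of strain over reference for BTN2, SSA4 and HSP12 in pairs of strains with HIF1 deleted (filled) and present (open), starved and growing, 1 point an array, with lines joining arrays of the same letter. Starved hif1 lies below the wild type for BTN2 and SSA4, while HSP12 is higher in growing hat1hif1 and hat2hif1 than in hat1 and hat2.

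Loss of HAT1 in growth called 1 of the 10, BTN2, where 2.38% of all probes were lower and 2.32% higher. BTN2 read -0.53 and -0.20 in hat1hat2, against -0.15 and 0.06 in hat2, and -0.62 and -0.25 in hat1hif1, against -0.51 and 0.01 in hif1. It read -0.47 and -0.05 in hat1hat2hif1, against -0.11 and 0.13 in hat2hif1. It was lower with the deletion in each pair on each array letter, and the strains overlapped in the last 2 pairs when letters were mixed. BTN2 fell by 0.26 (SE 0.04, 1.20-fold lower, adjusted p = 0.0135 in limma), and the call was lost without array a or b of hat1hif1 (adjusted p = 0.0525 each) or array a of hat2 (adjusted p = 0.0582). It was also lost without the dye term, with all 36 arrays in 1 fit and at the methods' thresholds. HSP42 differed by -0.32 (adjusted p = 0.114), and was called without array b of hat2hif1 or array a of hif1. The other 8 differed by -0.19 (HSP104) to 0.17 (SSA3), and SSA3 was called higher without array b of hat1hat2, on the same discordant spot. Loss of HAT2 called none of the 10, where 0.0157% of probes were called, and their differences ran from -0.11 (HSP30) to 0.21 (HSP104), with an adjusted p of 0.999 each. At an unadjusted p under 0.05 there were 3 of the 10 and 4.6% of all probes. Without array b of hat1hat2, SSA3 was called there too, again on that spot.

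The effect of HIF1 in starvation and its effect in growth were compared by their difference in 1 fit. The starved effect was hif1 over wild type, with HAT1 and HAT2 intact. The growing effect was the mean over the hat1, hat2 and hat1hat2 backgrounds, where they were not. HSP12, SSA4 and BTN2 had a lower HIF1 effect in starvation than in growth, where 1.50% of all probes were lower and 0.438% higher. For BTN2 the effect was -0.87 in starvation and -0.03 in growth, a difference of -0.83 (SE 0.13, adjusted p = 0.00210 in limma). For SSA4 it was -0.58 in starvation and 0.12 in growth, a difference of -0.69 (SE 0.12, adjusted p = 0.00547), which was lost without starved wild-type array b (adjusted p = 0.0843). For HSP12 it was -0.41 in starvation and 0.45 in growth, a difference of -0.86 (SE 0.21, adjusted p = 0.0457). The HSP12 call was lost without starved wild-type array b, starved hif1 array b, array b of growing hat1hat2hif1, hat1hat2 or hat1hif1, array a of hat2hif1, or either array of growing hat1 or hat2 (adjusted p from 0.0685 to 0.494). The other 7 differences ran from -0.50 (SSA3) to 0.36 (HSP26) and were not called. Median centring ended all 3 calls, the methods' thresholds left BTN2, and a fit without the dye term left SSA4. Taking the starved effect over 3 backgrounds (wild type, hat1 and hat2) left BTN2. In starvation, hat1hif1 and hat1 lay on opposite sides of the divide at ATG33, as did hat2hif1 and hat2. In these pairs the divide cannot be told apart from loss of HIF1. The starved means of HSP12 were 4.84 in hat1hif1 and 4.82 in hat1, and 4.67 in hat2hif1 and 4.62 in hat2. For SSA4 the same pairs were 3.25 and 3.56, and 3.40 and 3.26. For BTN2 these were 2.23 and 2.96, and 2.52 and 2.59. The starved pair of hif1 and wild type and the growing pairs lay on different sides of the divide at ATG33. The presence of HAT1 and HAT2, strain background, medium and this divide cannot be told apart from starvation in this difference.

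Across the 18 strain means the 10 genes varied together, and the starved and growing strains lay apart in 9 of them. The 45 pairs of genes had a median Pearson correlation of 0.96 (0.60 to 0.99). This is a description over strains read, by the methods, against a common reference RNA, on both sides of the divide at ATG33. Within the 8 starved strains the median was 0.21 (-0.80 to 0.83), with 12 pairs below 0, and within the 7 growing NuB4 strains it was 0.43, with 13 pairs below 0. Over the 10 growing strains, where the RITE strains set the range, it was 0.90 (0.41 to 1.00).

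Among probes with 1 symbol, those whose strain means were most like the mean of the 10 genes over 18 strains were PET10 (0.998), SOD2 (0.998), ACO1 (0.997), RCK2 (0.997) and NQM1 (0.997). PET10 encodes a lipid droplet protein, SOD2 the mitochondrial superoxide dismutase and ACO1 aconitase. SOD2 had a median of 2.02 in starved strains and 0.63 in the tagged strains, with a mean of 0.08 in the untagged strain and a median of -0.15 in the NuB4 strains. Over the 10 growing strains the most alike were DCS2 (0.999), LAP4 (0.996), TFS1 (0.996), GUT2 (0.996) and HFD1 (0.995). LAP4, a vacuolar aminopeptidase, was highest in the tagged strains (median 0.77) and not in starvation (median 0.37), whereas TFS1, an inhibitor of carboxypeptidase Y, was 1.93 in the tagged strains and 3.55 in starvation.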

How the data were processed

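The authors hybridised strain and reference RNA to dual-channel oligonucleotide arrays, with a dye swap for each strain, and deposited scanner intensities for each spot and their own normalized log2 ratios. The submitters' processing notes name limma 2.12.0. A further deposited table of the authors' own comparisons (average log2 changes and p-values) was not used, and no other per-sample column was left out. Here, spot intensities were background-corrected (normexp, offset 50) and loess-normalized, each ratio was turned to strain over reference, and the 2 spots of a probe were averaged. Differences were fitted with lmFit and eBayes in limma 3.58.1 (R 4.3.3, statmod 1.5.0, jsonlite 2.0.0) with a dye term for each experiment, which is also the array letter (replicate block). P-values were adjusted over 6388 probes (Benjamini-Hochberg), with a threshold of 0.05. Fits used 22 arrays for starvation, 20 for tags, 16 for starved mutants, 14 for growing NuB4 deletions and 30 for the difference of HIF1 effects.

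Same-letter arrays deviated together from their strain means in 25 of 28 starved pairs of strains, 3 of 3 RITE pairs and 21 of 21 NuB4 pairs (correlation above 0.1), with medians of 0.50, 0.25 and 0.59. The letter is a dye orientation, and whether it also marks a shared culture or processing batch cannot be told apart from the dye. A probe was above background where the strain signal exceeded the local background by 2 SD. In simulated data for hif1 in starvation, 90.0% of 100 probes changed by 1 (log2) and 100% of 100 probes changed by 2 were recovered, with 7 false calls. The simulated noise was independent between arrays, unlike that of the same-letter arrays above. Changes as small as those called in hif1 (-0.58 and -0.87) were not simulated, so recovery at these sizes cannot be read from it.

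All members were covered in every comparison, by name or within the range of those not called. Of the other lists, at most the 3 highest and 3 lowest called genes were named, besides close paralogs, HSF1, MSN2, MSN4, the deleted genes, and the 5 genes most like the members' mean. Members and lists were chosen with earlier results of these data known. The alternatives were other background corrections and scalings, the authors' ratios, removal of the dimmest 25% of probes, no replicate block, all 36 arrays in 1 fit, the fold and p thresholds of the methods (1.7 and 0.01), other baselines and leaving out each array. The number of arrays limits the precision.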

Additional observations from a re-analysis of the deposited data

Results flagged for a closer look

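The effect of HIF1 deletion on wild type in starvation differed from its mean effect on hat1, hat2 and hat1hat2 backgrounds in growth for 3 of the 10 genes. This was a test of the difference itself in limma. The presence of HAT1 and HAT2, strain background, medium and the divide at ATG33 cannot be told apart from starvation in it. The starved effect minus the growing effect was -0.83 for BTN2 (adjusted p = 0.00210), -0.69 for SSA4 (adjusted p = 0.00547) and -0.86 for HSP12 (adjusted p = 0.0457). With median centring these were -0.67, -0.44 and -0.62 (adjusted p = 0.0573, 0.127 and 0.0740 in limma), and none passed. BTN2 and SSA4 were called lower in starved hif1 and were not called in growth, while HSP12 was called in neither alone. With 2 arrays a strain, no array could be tested as standing apart from the rest of its group.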

How the results depend on the processing

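No called difference of a member changed direction under any alternative, while HSP82 in starvation, not called after loess, was called lower under print-tip loess and median centring. Without the replicate block, which pairs arrays of the same dye orientation, 0 members were called in starved hif1, 0 in H4K5,12Q, 0 for HAT1 in growth and 1 (SSA4) in the difference of HIF1 effects. At the methods' thresholds the numbers called were 4 in H3-HA, 3 in H3-T7, 0 in starved hif1, H4K5,12Q and H4K5,12R, 0 for HAT1 and 1 for the difference of HIF1 effects. Median centring gave 0 in starved hif1, H4K5,12Q and H4K5,12R, 4 for growing HIF1 (HSP12, HSP30, HSP82 and SSA3, with 14.9% of all probes called, 27.0% of them higher, against 61.9% after loess) and 0 for the difference. It also made 60.3% of the HAT1 calls higher, against 49.3%. BTN2 was the 1 gene called in hat1hif1 under print-tip loess, with the authors' ratios, without background correction, without dim probes and with all 36 arrays, which also called 1 in hat2hif1 (BTN2) and 0 for HAT1. Print-tip loess left 1 (BTN2) in hif1. HSP42 was the 1 gene called between H4 mutants and NuB4 doubles under print-tip loess and with the authors' ratios, and between H4K5,12Q and H4K5,12R with the authors' ratios. Growing HIF1 called 1 (HSP12) with the authors' ratios, without background correction and without dim probes. Taking the starved HIF1 effect over 3 backgrounds, where the hat1 and hat2 pairs cross the divide at ATG33, left 1 (BTN2) in the difference. The 6 RITE arrays fitted alone, chosen after seeing the data, gave 5 in H3-HA and 3 in H3-T7. Leaving out 1 array, where a lone array is assumed to vary like the others, gave 9 in every starvation fit, 3 to 9 in H3-HA, 3 to 7 in H3-T7, 0 to 6 between the tags, 0 to 2 in hif1, 0 in H4K5,12Q, 0 to 1 in H4K5,12R, 0 to 2 for growing HIF1, 0 to 2 for HAT1, 0 to 1 for HAT2 and 1 to 3 for the difference of HIF1 effects. The share of all probes called also moved with the setting, and it is not given here for most of them. A change in these counts is therefore not a result about the members alone. Signal over background limits SSA3 most, which was dim in growing cells.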

Other observations

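SSA3 had 1 value that rested on a single spot. On array a of growing hat1hat2 it read 1.15, the highest of the 14 growing NuB4 arrays, whose median was 0.02. Its 2 spots there read -0.05 and 2.35, with strain signals of 51.5 and 368.2 intensity units. Leaving out array b of hat1hat2 keeps this value as the only one of that strain, and SSA3 was then called for HIF1, HAT1 and HAT2 in growth.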
